A study of Arabidopsis thaliana with 8 samples.

Results

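The nuclear genes that encode the light-harvesting antenna and the core subunits of both photosystems were followed in Arabidopsis guard cells during mild heat. The set held 43 loci, taken from a list of locus identifiers, and consisted of 21 antenna genes (LHCB and LHCA) and 22 core genes (PSA and PSB). They were 43 of the 25410 loci read by the array, of which 18477 had a probe that was tested. All 43 had a probe well above background on all 8 arrays, so that none was lost to the filter on dim probes.

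Light-harvesting chlorophyll a/b-binding proteins gather light and pass the energy to the reaction centres of photosystem II (PSII) and photosystem I (PSI), which drive electrons from water to ferredoxin. The LHCB proteins serve mainly PSII, the LHCA proteins serve PSI, and the chlorophyll-binding reaction centre subunits themselves are encoded in the chloroplast, so that the nuclear core genes described here are the peripheral subunits. Guard cells of Arabidopsis contain chloroplasts, although fewer and smaller ones than the mesophyll cells beneath them, and antenna transcripts are known from leaves to respond to light, the circadian clock and stress.

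Total RNA of stomata-enriched epidermal fragments was hybridised to 8 one-colour Agilent arrays, 2 in each of 4 groups. These were the T-DNA insertion line bam1 after heat, bam1 under control conditions, the wild type Col-0 after heat and Col-0 under control conditions, all from 5-week-old plants. Heat meant 32 °C by day and 28 °C by night for 3 days, whereas the control plants stayed at 22 °C and 18 °C. BAM1 encodes β-amylase 1, a starch-degrading enzyme of the chloroplast, and bam1 was represented by a single insertion line. Each replicate pooled 5 to 8 plants and was harvested at the end of the light period. With 2 replicates a group, the P-values rest on the spread between such pools, shared over the 4 groups. Because the replicates of a group lay on different slides, this spread also holds any difference between the slides.

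The arrays matched their labels. BAM1 itself gave signals of 155 and 210 in bam1 heat, 108 and 76.2 in bam1 control, 4297 and 4699 in Col-0 heat, and 3531 and 2090 in Col-0 control. All 4 heat shock protein genes examined as a check on the treatment were called higher after heat in both genotypes, a call being a limma adjusted P below 0.05 with a change of more than 2-fold. Their summed normalised level was 36867 to 47598 in bam1 heat and 10862 to 13012 in Col-0 heat. All 4 were higher in bam1 heat than in Col-0 heat (median log2 difference 2.33), although none was called. Probes well above background made up 61.3 to 70.8% of each array, and the only saturated probe belonged to none of the 43 genes. Replicate 1 of every group lay on one slide and replicate 2 on the other, and raw signals of the bright probes described here were mostly higher on slide 1.

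RNA of stomata-enriched tissue can carry transcripts of other leaf cells. All 9 guard cell, 7 mesophyll, 4 epidermis and 3 vascular markers were measured well above background on all 8 arrays. The summed normalised level of the guard cell markers was 42499 to 45689 in bam1 heat, 64649 to 86452 in bam1 control, 51083 to 56093 in Col-0 heat and 104067 to 110439 in Col-0 control. That of the mesophyll markers was 927702 to 940285 in bam1 heat, 825152 to 905433 in bam1 control, 875789 to 964269 in Col-0 heat and 832619 to 866635 in Col-0 control. The sums of the guard cell markers were thus lower on all heat arrays. Of the 9 genes 1 was called lower in bam1 and 4 in Col-0, beside 11.4% and 10.2% of all tested probes. When arrays were scaled to their 75th percentile, 3 of 9 were called lower in bam1 and 6 in Col-0, beside 12.0% and 11.5%. No mesophyll marker was called in either genotype (median log2 change 0.16 in bam1 and 0.07 in Col-0, which became -0.62 and -0.71 with the 75th percentile). The guard cell sums were also lower in bam1 than in Col-0 in either condition. Of those 9 markers, 9 were lower in bam1 under control conditions (median log2 -0.76) and 8 under heat (-0.29), with none called. Under control conditions 6 of 9 had an unadjusted limma P below 0.05, beside 4.0% of all probes. The mesophyll medians were 0.05 and 0.06.

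The epidermis markers summed to 90883 to 105890 in bam1 heat, 56486 to 65252 in bam1 control, 55104 to 113321 in Col-0 heat and 66121 to 81602 in Col-0 control, so that their heat arrays were higher in bam1 and overlapped with control in Col-0. Of these 4 markers 0 were called lower in bam1 and 2 in Col-0, beside 11.4% and 10.2% of all probes, with median log2 changes of -0.46 and -0.69. The vascular markers summed to 44870 to 48386 in bam1 heat, 54949 to 65706 in bam1 control, 36870 to 42167 in Col-0 heat and 53489 to 70296 in Col-0 control, and were thus lower on all heat arrays. Of these 3 markers SUC2, a sucrose transporter of the phloem, was called lower in both genotypes (-1.28 in bam1 and -1.34 in Col-0), while the median was 0.02 in bam1 (-0.49 with the 75th percentile) and -0.34 in Col-0. The part of these 4 marker lists in the changes of the photosystem genes was not tested, and in such bulk samples fewer cells of a type and less RNA per cell cannot be told apart.

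After heat, part of the light-harvesting and photosystem genes were lower in both genotypes, and none was called higher. A gene was called when limma gave a Benjamini-Hochberg adjusted P below 0.05 and a change of more than 2-fold, each gene being represented by its brightest probe after quantile normalisation of the log2 signals. On this basis 13 of the 43 genes were lower and 0 higher in bam1 heat against bam1 control, where 11.4% of all tested probes were lower and 11.0% higher. In Col-0, 12 of the 43 were lower and 0 higher, where 10.2% of all probes were lower and 11.4% higher. The 12 genes called in Col-0 were also called in bam1, and LHCB3 was the additional gene there. The median log2 change of the 43 genes was -0.70 in bam1 and -0.62 in Col-0, beside a median of 0.01 over all tested probes in either genotype.

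All 4 heat arrays lay below all 4 control arrays for 29 of the 43 genes, beside 25.1% of all tested probes. The opposite order, with all heat arrays above all control arrays, was found for LHCB7 alone, beside 27.1% of all probes. Within slide 1 the antenna median was -0.80 in bam1 and -0.63 in Col-0, and within slide 2 it was -0.78 in bam1 and -0.47 in Col-0. The medians of the core genes within the slides were -0.69 and -0.66 in bam1 and -0.74 and -0.64 in Col-0, so that both slides showed lower levels for both classes.

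The number of genes that passed depended strongly on how the arrays were scaled and on which probes stood for a gene. With each array scaled to its 75th percentile, 29 of the 43 genes were lower in bam1 (12.0% of all probes lower, 11.0% higher) and 26 were lower in Col-0 (11.5% lower, 10.6% higher), again with 0 higher. With quantile normalisation but the mean over all probes of a locus, 25 were lower in bam1 (11.5% of all loci and unnamed probes lower, 11.8% higher) and 20 were lower in Col-0 (10.3% lower, 12.3% higher). Both changes together gave 35 genes lower in bam1 (11.8% of all loci and unnamed probes lower, 12.0% higher) and 34 in Col-0 (11.5% lower, 11.6% higher). The share called among all features thus moved by less than 2 percentage points, while the count of photosystem genes varied from 13 to 35 in bam1 and from 12 to 34 in Col-0.

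**Figure D1:**
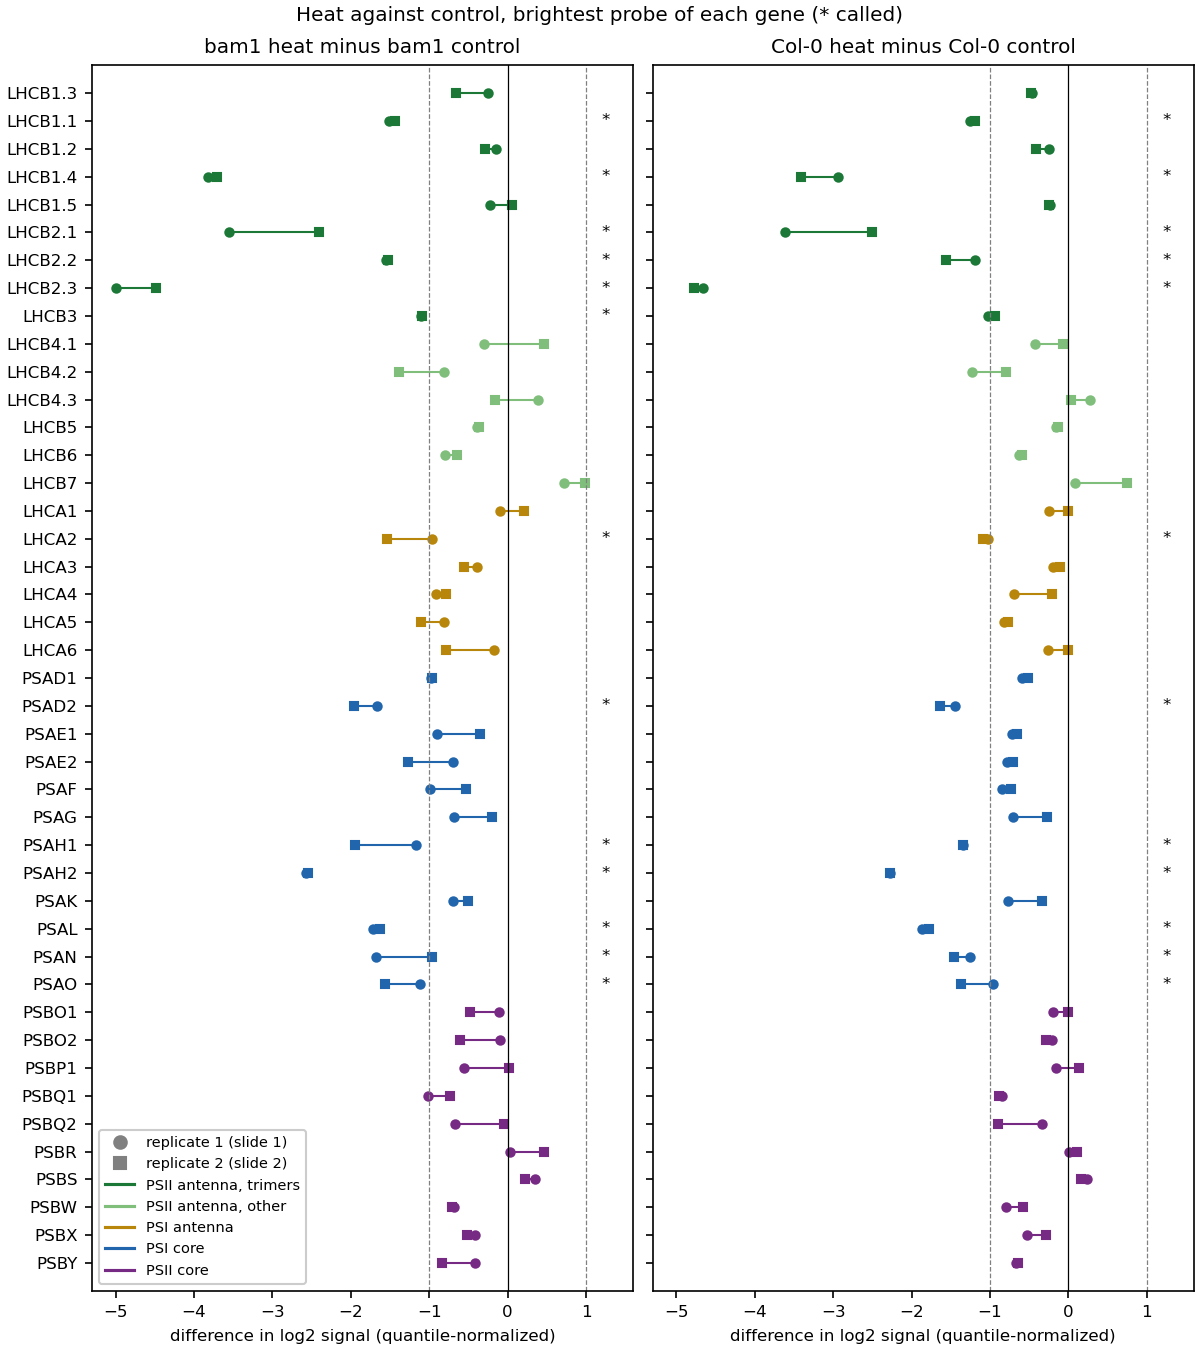
Heat minus control for each of the 43 genes on the log2 scale (x axis), bam1 on the left and Col-0 on the right; circles are replicate 1, squares replicate 2, and a star marks a gene called by limma. The trimeric PSII antenna and the PSI core hold most of the called genes, and LHCB7 lies to the right of 0 in both panels.

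The strongest changes were found in the trimeric antenna of PSII, which is built from LHCB1, LHCB2 and LHCB3 proteins. Of its 9 genes, 6 were lower in bam1 and 5 in Col-0, beside 11.4% and 10.2% of all probes, with median log2 changes of -1.48 and -1.22. LHCB2.3 (AT3G27690), one of the genes for the LHCB2 protein that is phosphorylated during state transitions, had processed signals of 1061 and 942 in bam1 heat, against 28806 and 16156 in bam1 control. In Col-0 it had 1676 and 864 after heat, against 37382 and 21646 under control conditions. The groups did not overlap, and LHCB2.3 was 26.7-fold lower after heat in bam1 (log2 change -4.74 ± 0.26 SE, limma adjusted P = 0.000187) and 26.3-fold lower in Col-0 (log2 change -4.72 ± 0.26 SE, limma adjusted P = 0.000246).

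LHCB1.4 (AT2G34430), one of 5 genes for the abundant LHCB1 protein, gave 14082 and 11954 in bam1 heat, against 250600 and 128364 in bam1 control. The corresponding signals in Col-0 were 30564 and 16189 after heat, against 288003 and 172204. Its log2 change was -3.76 ± 0.19 SE in bam1 (limma adjusted P = 0.000167) and -3.17 ± 0.19 SE in Col-0 (limma adjusted P = 0.000291), again with no overlap between heat and control. A pair of dimmer LHCB1.4 probes was not well above background on either bam1 heat array, and these were at least 42.4-fold and at least 28.6-fold lower there (limma adjusted P = 0.00036 and 0.00123), each bound being set by the lowest signal well above background on those arrays.

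LHCB2.1 (AT2G05100), the third large change in this class by brightest probes, was a dim probe with 212 and 193 in bam1 heat, against 1728 and 702 in bam1 control, and with 308 and 249 in Col-0 heat, against 2573 and 1231 in Col-0 control. The log2 change was -2.98 ± 0.38 SE in bam1 and -3.06 ± 0.38 SE in Col-0 (limma adjusted P = 0.0022 and 0.00211). Heat and control values were fully separated here too, and the change was larger on slide 1 than on slide 2 in both genotypes.

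Smaller decreases were measured with the brightest probes of 3 further genes of the trimers. LHCB2.2 was 2.90-fold lower in bam1 and 2.59-fold lower in Col-0. LHCB1.1 had 63017 and 42696 in bam1 heat, against 245394 and 116196 in bam1 control, and 90734 and 47689 in Col-0 heat, against 286668 and 135657 in Col-0 control, which was 2.78-fold lower in bam1 and 2.33-fold lower in Col-0 after normalisation. LHCB3, whose product forms mixed trimers with the other LHCB proteins, was 2.14-fold lower in bam1 but missed the 2-fold limit in Col-0 at 1.98-fold (limma adjusted P = 0.00228 and 0.00342). Dimmer probes of LHCB2.2, LHCB1.1 and LHCB3 changed more, and all were called lower in both genotypes. Their log2 changes reached -3.75, -3.94 and -2.66 in bam1 and -3.36, -3.21 and -2.09 in Col-0. LHCB1.3, LHCB1.2 and LHCB1.5 did not pass with their brightest probes, whose log2 changes were -0.45, -0.22 and -0.09 in bam1 and -0.47, -0.32 and -0.23 in Col-0.

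The LHCB1 and LHCB2 genes are near-identical copies that partly lie side by side. In the RefSeq annotation (TAIR10.1), LHCB1.3, LHCB1.1 and LHCB1.2 are consecutive protein-coding genes on chromosome 1, and LHCB1.4 and LHCB1.5 as well as LHCB2.1 and LHCB2.2 are direct neighbours on chromosome 2. The brightest probes of neighbours gave different values. LHCB1.5 had 162082 and 72832 in bam1 heat, against 258786 and 78990 in bam1 control, and 189395 and 73996 in Col-0 heat, against 283479 and 121660 in Col-0 control. With these probes, heat and control arrays overlapped for LHCB1.5 and were far apart for LHCB1.4. Other probes of this pair differed less. The second brightest LHCB1.4 probe changed by -1.76 in bam1 and -1.73 in Col-0 on the log2 scale. Dimmer LHCB1.5 probes were called lower at -2.07 and -2.43 in bam1 and at -1.50 and -1.88 in Col-0. Another LHCB1.5 probe stayed at -0.22 in bam1 and -0.01 in Col-0. How much signal a probe receives from a sister gene is unknown, so that values of single LHCB1 and LHCB2 copies are uncertain.

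**Figure D2:**
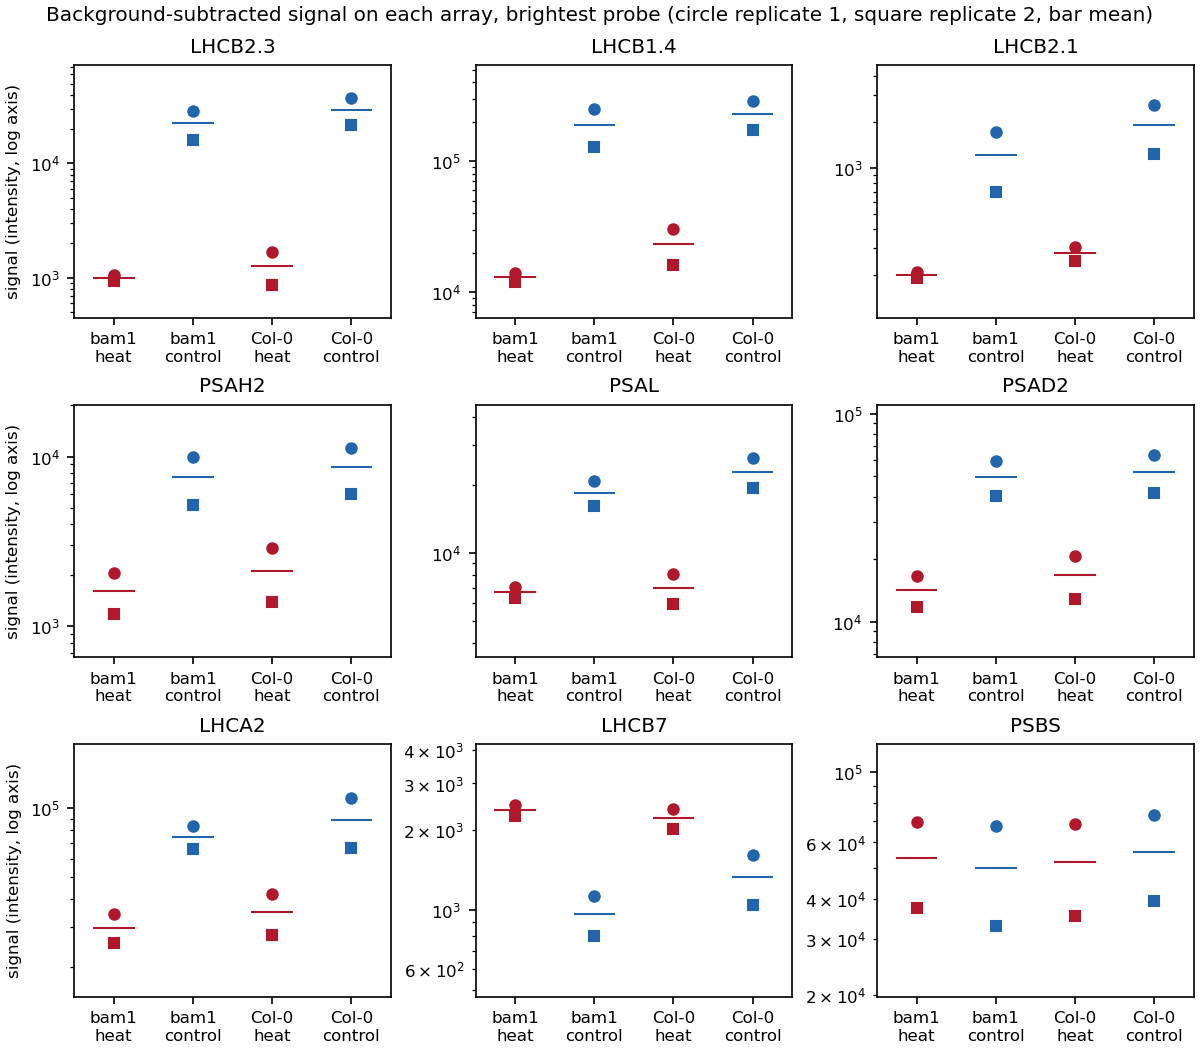
Background-subtracted signal of 9 genes (intensity, log axis) on each array, for bam1 heat, bam1 control, Col-0 heat and Col-0 control; circles are replicate 1, squares replicate 2, and bars the mean of both. Heat lies below control for the first 7 genes, above it for LHCB7, and the groups overlap for PSBS.

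Different probes of the same locus gave different changes, and this was seen throughout the set. The 128 probes of the 43 genes were all tested, and 72 were lower in bam1 and 69 in Col-0, with 0 higher in either. Of all tested probes 11.4% were lower in bam1 and 10.2% in Col-0. Among the 57 probes with a mean signal of 50000 or more, the median log2 change was -0.63 in bam1 and -0.55 in Col-0, and 18 and 16 were called lower. Among the 71 dimmer probes the median was -1.65 in bam1 and -1.53 in Col-0, and 54 and 53 were called lower, so that the brighter probes of these genes showed the smaller changes.

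LHCB1.3 (AT1G29930), with 9 probes, illustrates the range. Its 3 brightest probes changed by -0.35 to -0.77 on the log2 scale in bam1 and by -0.18 to -0.55 in Col-0, and none of them was called. The remaining 6 changed by -1.94 to -3.29 in bam1 and by -1.48 to -2.76 in Col-0, and all of them were called in both genotypes. Averaged over the 9 probes, LHCB1.3 was called lower in both genotypes, with a log2 change of -2.05 in bam1 and -1.61 in Col-0.

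The probes of these genes are among the brightest of the array. Of the 100 brightest probes, 12 and 16 belonged to the 43 genes on the bam1 heat arrays, against 30 and 33 on the bam1 control arrays. On the Col-0 heat arrays 15 and 19 did, against 35 and 30 on the Col-0 control arrays. Quantile normalisation gives the brightest ranks of every array the same values, whereas scaling to the 75th percentile moves all probes of an array by a single factor, and the part of either in the smaller changes of bright probes was not tested.

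**Figure D3:**
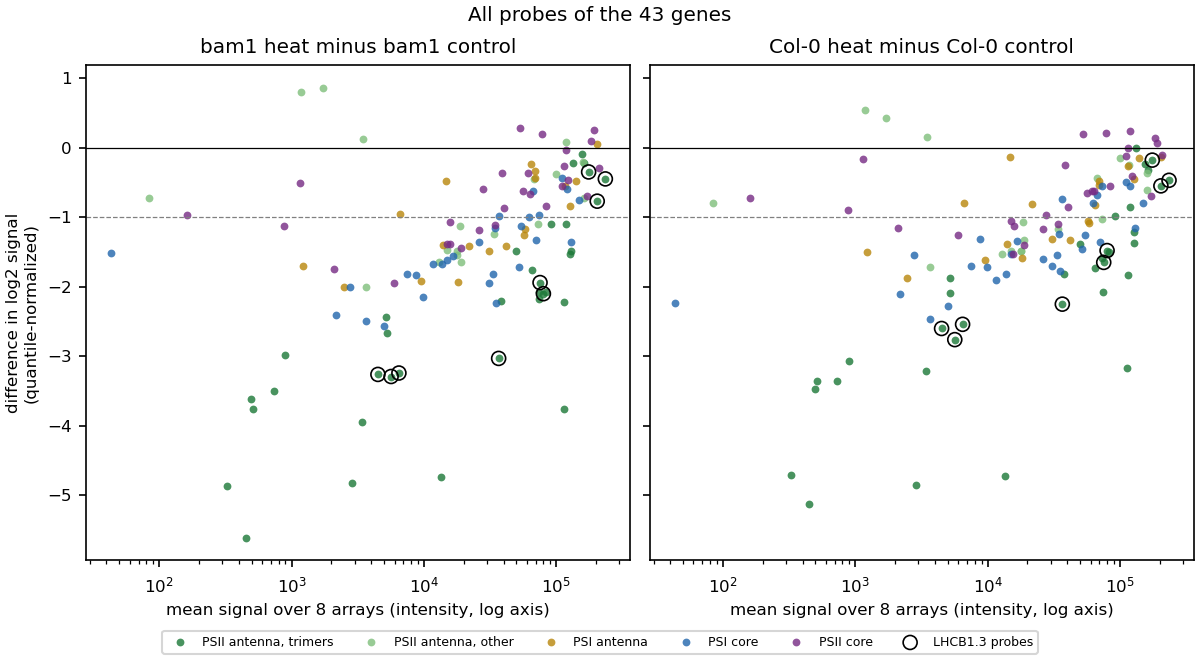
Heat minus control on the log2 scale (y axis) against the mean signal over the 8 arrays (x axis, intensity, log scale) for all 128 probes, bam1 on the left and Col-0 on the right; rings mark the 9 probes of LHCB1.3. By their medians, probes above 50000 lie closer to 0 than dimmer ones.

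The PSII antenna genes outside the trimers, except LHCB4.2, changed by less than 2-fold with the brightest probes. Of these 6 genes 0 were called in either genotype. Of all probes 11.4% were lower and 11.0% higher in bam1, and 10.2% were lower and 11.4% higher in Col-0. A count of 0 of 6 lies near these shares. LHCB4.2, which encodes a form of the linker protein CP29, had 41830 and 40047 in bam1 heat, against 93515 and 102924 in bam1 control, and 41274 and 43038 in Col-0 heat, against 124878 and 98571 in Col-0 control. Its heat and control signals did not overlap, but the fit gave a log2 change of -1.10 ± 0.41 SE in bam1 and -1.02 ± 0.41 SE in Col-0 (limma adjusted P = 0.0777 and 0.097). Scaled to the 75th percentile it was called in both, with -1.77 in either genotype. Under quantile normalisation its change in bam1 was -1.58 when replicate 1 of bam1 control was left out. These values are of the brightest probe. All dimmer LHCB4.2 probes were called lower in both genotypes under quantile normalisation. They changed by -1.24, -1.47 and -1.64 in bam1 and by -1.17, -1.49 and -1.53 in Col-0.

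LHCB6, the CP24 linker, changed by -0.72 in bam1 and -0.61 in Col-0, which reached adjusted P of 0.0134 and 0.0246 in limma without a 2-fold difference. LHCB5, the CP26 linker, changed by -0.38 in bam1 and by -0.15 in Col-0 and did not pass. The brightest probe of LHCB4.1, the major CP29 gene, was at 0.08 in bam1 and -0.25 in Col-0 under quantile normalisation, and at -0.79 in bam1 and -1.08 in Col-0 with the 75th percentile, so that the direction of this probe in bam1 depended on the scaling. Of the 5 probes of LHCB4.1, 3 were called lower in either genotype, and the mean over all 5 was called lower in both (log2 change -1.06 in bam1 and -1.07 in Col-0, limma adjusted P = 0.00319 and 0.0032).

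LHCB4.3 and LHCB7 had positive changes in both genotypes after quantile normalisation. LHCB4.3, a CP29 form with a single probe, had 4106 and 3425 in bam1 heat, against 2450 and 2944 in bam1 control, and 4680 and 3844 in Col-0 heat, against 2993 and 3428 in Col-0 control. Its normalised values changed by 0.12 in bam1 and 0.15 in Col-0 (-0.03 and 0.03 with the 75th percentile) and were not called.

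LHCB7, a rare relative of the LHCB proteins, was the only gene of the set with higher values on every heat array. It gave 2489 and 2269 in bam1 heat, against 1127 and 799 in bam1 control, and 2412 and 2019 in Col-0 heat, against 1611 and 1050 in Col-0 control. The difference was 1.81-fold in bam1 (log2 change 0.86 ± 0.20 SE, limma adjusted P = 0.0186) and 1.34-fold in Col-0 (log2 change 0.42 ± 0.20 SE, limma adjusted P = 0.157), below the 2-fold limit in both, and its sign was the same with the 75th percentile (0.82 in bam1 and 0.39 in Col-0).

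The 6 LHCA genes form the antenna belt of PSI or, in the case of LHCA5 and LHCA6, link PSI to the NDH complex. With the brightest probes only LHCA2 was called, beside 11.4% of all probes lower in bam1 and 10.2% in Col-0. Dimmer probes of further LHCA genes were called lower in both genotypes. Of the 6 LHCA4 probes 4 were, at -1.17 or lower in bam1 and -1.09 or lower in Col-0. For LHCA1 1 of 5 probes was, at -1.4 in bam1 and -1.38 in Col-0. For LHCA3 1 of 3 probes was, at -1.7 in bam1 and -1.5 in Col-0. Another LHCA3 probe was called in bam1 alone (-1.41, against -0.81 in Col-0). The values below are of the brightest probes. LHCA2 (AT3G61470) had 34217 and 25426 in bam1 heat, against 83929 and 65958 in bam1 control, and 42054 and 27752 in Col-0 heat, against 111339 and 66570 in Col-0 control. Heat and control did not overlap, and the decrease was 2.38-fold in bam1 and 2.08-fold in Col-0 (limma adjusted P = 0.00485 and 0.00897). The call was lost in bam1 without replicate 2 of bam1 control (log2 change -0.98) and in Col-0 without replicate 2 of Col-0 heat (log2 change -1.04, limma adjusted P = 0.0553).

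LHCA4 had 85443 and 63390 in bam1 heat, against 223801 and 118181 in bam1 control, and 106442 and 72337 in Col-0 heat, against 229779 and 117875 in Col-0 control. LHCA5 and LHCA4 decreased by less than 2-fold in bam1, with log2 changes of -0.96 and -0.84 (limma adjusted P = 0.00484 and 0.0111). In Col-0 the values were -0.80 for LHCA5 (limma adjusted P = 0.00974) and -0.45 for LHCA4 (limma adjusted P = 0.0853). LHCA3 and LHCA6 each changed by -0.48 in bam1 and by -0.15 and -0.13 in Col-0, and neither passed. LHCA1 had 203505 and 138163 in bam1 heat, against 274553 and 125029 in bam1 control, and 252123 and 124904 in Col-0 heat, against 340834 and 164082 in Col-0 control, so that heat and control overlapped. It was at 0.05 in bam1 and -0.13 in Col-0 with quantile normalisation, and at -0.65 in bam1 and -0.79 in Col-0 with the 75th percentile. With the 75th percentile 4 of the 6 LHCA genes were called lower in bam1 and 2 in Col-0, beside 12.0% and 11.5% of all probes.

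Of the 12 PSI core genes, 6 were lower after heat in bam1 and the same 6 in Col-0, beside 11.4% and 10.2% of all probes, with median log2 changes of -1.15 and -0.98. These were PSAD2, PSAH1, PSAH2, PSAL, PSAN and PSAO. PSAH2 (AT1G52230), one of the genes for the subunit at which mobile light-harvesting complexes dock on PSI, had the largest change. It gave 2062 and 1176 in bam1 heat, against 9912 and 5207 in bam1 control, and 2872 and 1382 in Col-0 heat, against 11274 and 6010 in Col-0 control. The decrease was 5.90-fold in bam1 and 4.83-fold in Col-0 (limma adjusted P = 0.00285 and 0.00447), with all heat arrays below all control arrays.

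PSAL (AT4G12800), which lies next to PSAH in the same docking region, had 7040 and 6340 in bam1 heat, against 20897 and 16086 in bam1 control. In Col-0 it had 8079 and 5943 after heat, against 26369 and 19418 under control conditions. The log2 change of PSAL was -1.67 ± 0.15 SE in bam1 and -1.82 ± 0.15 SE in Col-0 (limma adjusted P = 0.000719 and 0.000671), and heat and control were clearly separated.

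PSAD2 (AT1G03130), one of the genes for the subunit that binds ferredoxin on the stromal side, had 16660 and 11735 in bam1 heat, against 59334 and 40147 in bam1 control. In Col-0 its signals were 20655 and 12802 after heat, against 63484 and 41616. The log2 change was -1.81 ± 0.16 SE in bam1 and -1.54 ± 0.16 SE in Col-0 (limma adjusted P = 0.000664 and 0.00121). Its sister gene PSAD1 gave 46711 and 39491 in bam1 heat, against 115632 and 75615 in bam1 control, and 59033 and 43986 in Col-0 heat, against 124489 and 84109 in Col-0 control. PSAD1 changed by -0.97 in bam1 and -0.55 in Col-0 (limma adjusted P = 0.00667 and 0.0466), and stayed under the 2-fold limit in both. Without replicate 1 of bam1 control or replicate 2 of bam1 heat, PSAD1 passed that limit in bam1, at -1.06 and -1.13. These values are of its brightest probe. Dimmer PSAD1 probes were called lower at -1.15, -1.82 and -2.41 in bam1 and at -1.24, -1.70 and -2.10 in Col-0. The dimmest PSAD1 probe was not called.

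PSAO, another subunit of the docking region, was 2.54-fold lower in bam1 and 2.24-fold lower in Col-0. PSAN, a lumenal subunit on the plastocyanin side, was 2.51-fold lower in bam1 and 2.55-fold lower in Col-0, and PSAH1 2.95-fold and 2.53-fold. The other PSI core genes, PSAE1, PSAE2, PSAF, PSAG and PSAK, had log2 changes between -0.44 and -0.98 in bam1 and between -0.49 and -0.79 in Col-0, and PSAF and PSAE2 passed the P limit in both genotypes without a 2-fold change. PSAG, the smallest change of the class in Col-0, had 76207 and 70688 in bam1 heat, against 174943 and 93401 in bam1 control, and 88006 and 69753 in Col-0 heat, against 197315 and 118751 in Col-0 control. These raw signals did not overlap. With the 75th percentile 11 of the 12 PSI core genes were called lower in either genotype, the exception being PSAE1. Of all probes 12.0% were lower in bam1 and 11.5% in Col-0 under that scaling.

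The nuclear PSII core genes changed least among the cores, with median log2 changes of -0.36 in bam1 and -0.33 in Col-0. With their brightest probes 0 of 10 were called in either genotype, beside 11.4% of all probes lower in bam1 and 10.2% in Col-0. Some dimmer probes were called lower in both genotypes. For PSBP1 these had -1.18 and -1.44 in bam1 and -1.17 and -1.40 in Col-0. For PSBO1, PSBQ1, PSBQ2 and PSBY they had -1.39, -1.07, -1.95 and -1.74 in bam1. In Col-0 the same probes had -1.06, -1.12, -1.25 and -1.16. No other probe of the class was called in both genotypes. The values below are of the brightest probes. PSBQ1 (AT4G21280), a subunit of the oxygen-evolving complex, had 29398 and 23835 in bam1 heat, against 65705 and 36187 in bam1 control, and 32996 and 21780 in Col-0 heat, against 68875 and 44399 in Col-0 control. Its log2 change was -0.87 ± 0.15 SE in bam1 and -0.86 ± 0.15 SE in Col-0 (limma adjusted P = 0.00561 and 0.00613), a difference beyond the replicate spread but under 2-fold.

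PSBY and PSBW, small membrane subunits of PSII, passed the P limit in the same way, at -0.63 and -0.70 in bam1 and at -0.65 and -0.69 in Col-0. PSBX, PSBO1, PSBO2, PSBP1 and PSBQ2 did not pass with their brightest probes, with values from -0.47 to -0.26 in bam1 and from -0.62 to -0.01 in Col-0. PSBP1, with the smallest change of the class in Col-0, had 96230 and 71713 in bam1 heat, against 199810 and 79982 in bam1 control, and 113797 and 81324 in Col-0 heat, against 176123 and 102735 in Col-0 control. Heat and control overlapped for PSBP1 in the normalised values.

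PSBS and PSBR were the core genes whose brightest probes showed no decrease after quantile normalisation. PSBS (AT1G44575), the sensor protein for the thermal dissipation of excess light energy, had 69680 and 37543 in bam1 heat, against 67323 and 32853 in bam1 control, and 68614 and 35435 in Col-0 heat, against 73139 and 39208 in Col-0 control. Its normalised change was 0.28 in bam1 and 0.20 in Col-0, but -0.39 and -0.49 with the 75th percentile. PSBR, which helps to stabilise the oxygen-evolving complex, was at 0.25 in bam1 and 0.06 in Col-0, but at -0.49 and -0.66 with the 75th percentile. The direction of both thus depended on the scaling, and neither was called under either. A dimmer PSBS probe was at -0.51 in bam1 and -0.17 in Col-0 after quantile normalisation and was not called. The direction of PSBS thus also depended on the probe.

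With the 75th percentile, 5 of the 10 PSII core genes were called lower in bam1 and 4 in Col-0. These counts of 5 and 4 stand beside 11 and 11 of 12 for the PSI core, 7 and 7 of 9 for the trimeric antenna and 2 and 2 of 6 for the other PSII antenna genes under the same scaling. Of all probes 12.0% were lower in bam1 and 11.5% in Col-0 under it. The difference between classes was not tested.

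**Figure D4:**
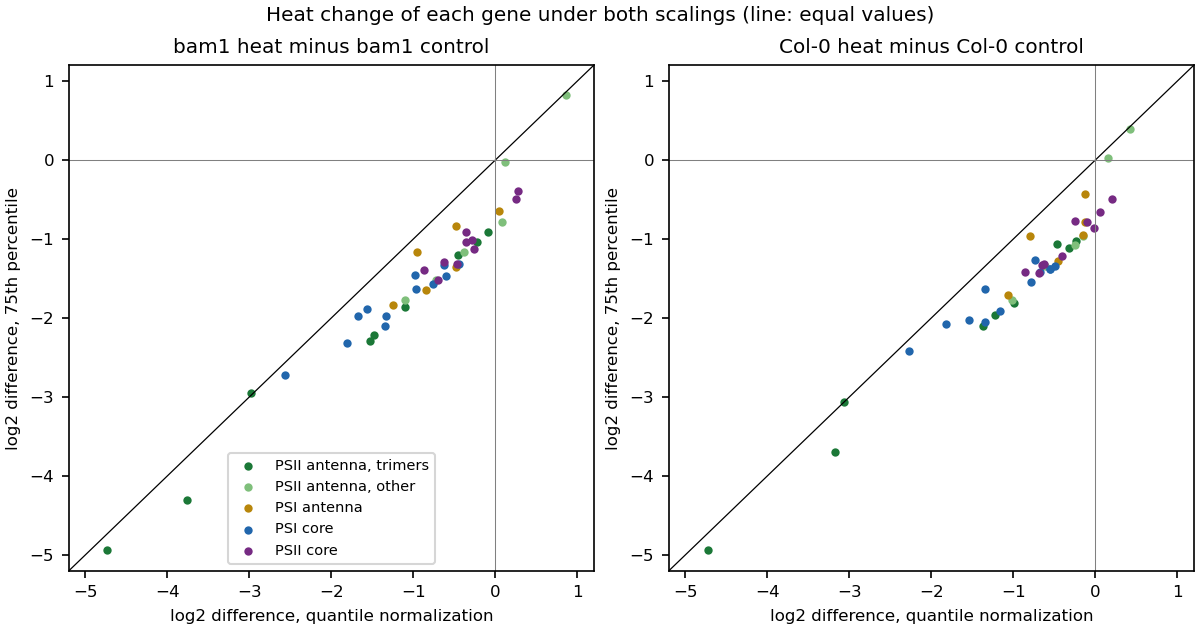
Log2 heat change of each gene after scaling to the 75th percentile (y axis) against that after quantile normalisation (x axis), bam1 on the left and Col-0 on the right; the diagonal marks equal values. Nearly all genes lie below the diagonal, and LHCB2.3, LHCB2.1 and LHCB7 lie close to it.

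Between the genotypes, no gene of the set was called. BAM1 itself was 26.4-fold lower in bam1 under heat and 25.3-fold lower under control conditions. It was not called either (limma adjusted P = 0.134 and 0.0881). A lack of calls between genotypes thus does not show that levels were equal. Under heat, bam1 against Col-0 gave 0 of 43 genes (0% of all probes called), and 1 of the 43 had an unadjusted P below 0.05, beside 3.27% of all probes. Under control conditions it gave 0 of 43 (0.00338% of all probes called), and 0 of the 43 had such a P, beside 4.0% of all probes. Heat changed bam1 and Col-0 by amounts whose difference was called for 0 of 43 (0.00338% of all probes called), with 0 below an unadjusted P of 0.05, beside 2.75% of all probes. The methods' t-test also called 0 in both genotype comparisons, but it too required more than 2-fold. No point estimate of the 43 genes reached that limit. Log2 differences ran from -0.75 to 0.15 under heat and from -0.51 to 0.31 under control conditions. The difference of the heat responses ran from -0.59 to 0.44. The counts of 0 genes from limma and from the t-test were therefore both fixed by the fold limit, and neither tests for smaller differences.

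LHCB1.4 was the gene with an unadjusted P below 0.05 under heat. With the signals given above, it was lower in bam1 heat than in Col-0 heat with a log2 difference of -0.75 (95% interval -1.20 to -0.30, limma adjusted P = 1.0) that was -1.04 on slide 1 and -0.46 on slide 2. The heat response of LHCB1.4 differed between bam1 and Col-0 by -0.59 (95% interval -1.22 to 0.04), which does not settle whether the responses differ.

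PSAD1 and LHCB1.1 followed under heat, at -0.29 and -0.31, and under control conditions PSBO1, LHCA6 and LHCB7 had the smallest P, at 0.30, 0.31 and -0.30. PSBO1 gave 221754 and 131352 in bam1 heat, 307196 and 189960 in bam1 control, 233932 and 118244 in Col-0 heat and 319320 and 154040 in Col-0 control. LHCA6 gave 17074 and 10464 in bam1 heat, 17951 and 15476 in bam1 control, 15160 and 12945 in Col-0 heat and 16212 and 13166 in Col-0 control. None of these differences exceeded the replicate spread in the fit.

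The intervals show what size of difference the 8 arrays could have missed. Under heat, 37 of the 43 genes had a 95% interval for bam1 against Col-0 that lay within 2-fold in either direction, and under control conditions 39 did. For the difference between the heat responses only 29 of 43 intervals lay within 2-fold, with single bounds reaching -1.50 and 1.92 on the log2 scale. The point estimates ran from -0.75 to 0.15 under heat and from -0.51 to 0.31 under control conditions.

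**Figure D5:**
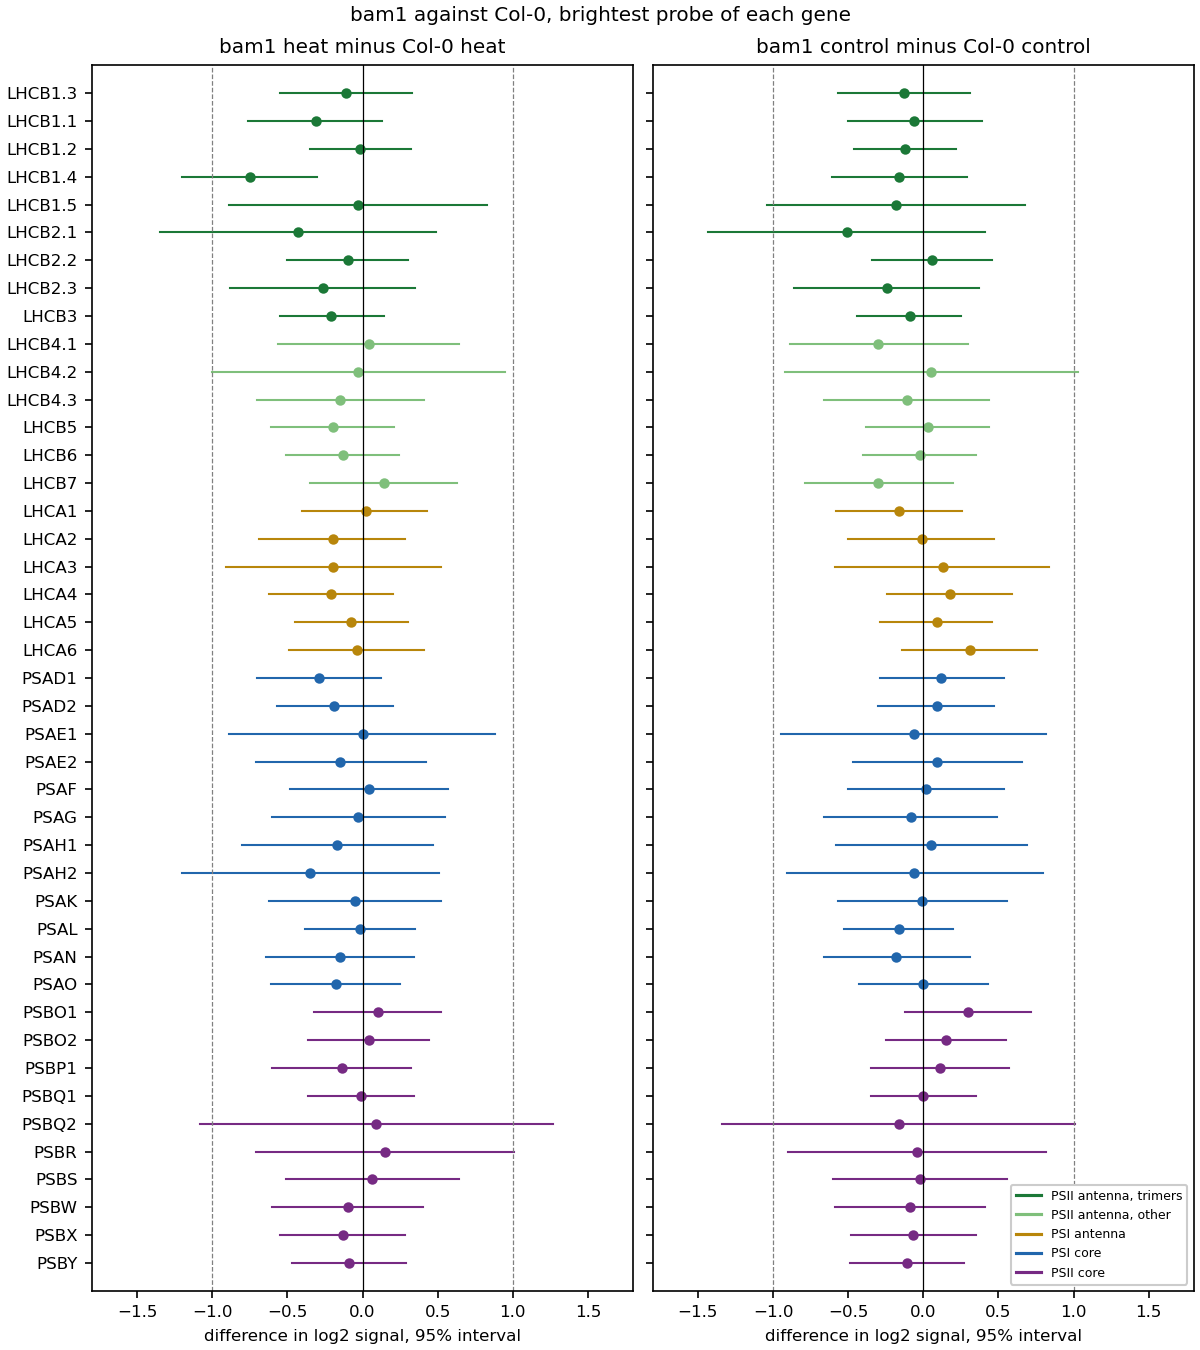
bam1 minus Col-0 on the log2 scale (x axis) with 95% intervals for each of the 43 genes, under heat on the left and under control conditions on the right; dashed lines mark a 2-fold difference. The interval excludes 0 for LHCB1.4 under heat, and for no gene under control conditions.

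Other steps of the pathway, taken from gene lists of the same field, moved in part. Among 9 genes for electron carriers and the ATP synthase, 2 were lower and 1 higher in bam1, and 1 was lower and 1 higher in Col-0, beside 11.4% of all probes lower and 11.0% higher in bam1 and 10.2% lower and 11.4% higher in Col-0. With the 75th percentile 5 were lower in bam1 and 2 in Col-0, and 1 higher in each. Of all probes 12.0% were then lower and 11.0% higher in bam1, and 11.5% lower and 10.6% higher in Col-0. ATPD, the delta subunit of the ATP synthase, was lower in bam1 (-1.46) and Col-0 (-1.23). PETE1, a plastocyanin, was lower in bam1 (-1.04, limma adjusted P = 0.013) and at -0.58 in Col-0, where only 1 of the 2 heat arrays gave a usable value for it. FD1, a leaf ferredoxin, was the only gene of that list called higher. FD1 had 63323 and 47545 in bam1 heat, against 14656 and 15795 in bam1 control, and 57838 and 54401 in Col-0 heat, against 13954 and 13525 in Col-0 control. The rise of FD1 was 1.89 ± 0.26 SE in bam1 and 2.18 ± 0.26 SE in Col-0 on the log2 scale (limma adjusted P = 0.00268 and 0.00179), and heat and control arrays did not overlap.

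Chlorophyll synthesis had 3 of 14 genes lower in bam1, beside 11.4% of all probes, and 4 in Col-0, beside 10.2%, and 0 higher in either. With the 75th percentile 7 were lower in bam1 and 6 in Col-0, beside 12.0% and 11.5% of all probes. PORA, a protochlorophyllide oxidoreductase best known from seedling greening, had 6.3 and 11.5 in bam1 heat, against 368 and 294 in bam1 control, and 4.9 and 6.1 in Col-0 heat, against 325 and 304 in Col-0 control. It was not well above background on any heat array and thus at least 20.4-fold lower in bam1 and at least 20.2-fold lower in Col-0 (limma adjusted P = 0.000127 and 0.000183). PORB, the main form in green leaves, changed by -1.83 in bam1 and -2.07 in Col-0, while PORC was not called (0.22 in bam1 and 0.45 in Col-0). None of 4 genes for chlorophyll breakdown was called in either direction. Of all probes 11.4% were lower and 11.0% higher in bam1, and 10.2% were lower and 11.4% higher in Col-0.

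Of 13 tested genes for the import, assembly, repair and state transitions of the antenna, only STN8, a kinase of PSII core proteins, was called, and only in Col-0 (1.08, against 0.95 in bam1). Of all probes 11.4% were called higher in Col-0. STN7, the kinase of the LHCB proteins, was at -0.22 in bam1 and -0.38 in Col-0 and did not pass. Among 4 tested regulators and light-stress relatives, ELIP1, a stress-induced relative of the LHC proteins, was called higher, with 1592 and 1385 in bam1 heat, against 96.8 and 76.9 in bam1 control, and 1203 and 1239 in Col-0 heat, against 459 and 134 in Col-0 control. Its log2 change was 3.58 in bam1 and 1.90 in Col-0 (limma adjusted P = 0.00285 and 0.0267). GLK1, a transcription factor known to activate antenna genes, changed by -0.92 in bam1 and -0.67 in Col-0 (limma adjusted P = 0.00539 and 0.0167), below 2-fold. The rise of ELIP1 differed between the genotypes by 1.68 (95% interval -0.01 to 3.37), which was not called.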

How the data were processed

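The authors deposited the scanner output of 8 one-colour arrays (Feature Extraction 11.5.1.1 per the file headers) with a background-subtracted intensity per probe. They also deposited log2 values, of which 99.7% lie within 0.05 of log2 signals scaled to the 75th percentile and centred on each probe's median, not of the quantile normalisation named in the methods. Here, log2 signals were quantile-normalised, and 29615 of 43603 probes, well above background on both arrays of a group, were tested with limma 3.58.1 (R 4.3.3) on 4 group means, with Benjamini-Hochberg adjustment over all of them. Of all probes 34348 carried a locus. The fit was tested on simulated data. The number of arrays limits the precision.

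Members and gene lists were chosen with earlier results of these data known. Values on every array were given for up to 6 called members with the largest change per genotype, the largest and smallest change of each subgroup in Col-0, and up to 3 members with the smallest P between genotypes, with a few further genes named after their values were seen. Same-numbered samples shared a slide per the headers, and their deviations from the group means correlated at 0.28 to 0.63 in all 6 pairs of groups, so replicate number was tried as a block. CPFTSY had no probe here and ELIP2 no tested probe.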

Additional observations from a re-analysis of the deposited data

How the results depend on the processing

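Of the antenna and core counts and medians, none changed direction under the alternatives that could be run, except the small core median of bam1 against Col-0 under control conditions, which was -0.01 and became 0.02 with normexp, and 0.02 at one end of its range when an array was left out. Within slide 1 the medians of the difference of heat responses were 0.01 (antenna) and 0.02 (core), and within slide 2 -0.19 and -0.15, against -0.11 and -0.03 over both. Among the smaller classes, the LHCA median of bam1 against Col-0 was 0.11 under control conditions and -0.02 with the mean over probes, and that of the PSII core was 0.01 under heat and -0.12. Genes called lower after heat in bam1 (antenna 7, core 6) and in Col-0 (antenna 6, core 6) increased to 13 and 16 in bam1 and 11 and 15 in Col-0 with the 75th percentile and with the deposited log2 table. The mean over probes gave 14 and 11 in bam1 and an antenna count of 11 in Col-0, and the mean over probes with the 75th percentile, chosen after seeing the data, gave 16 and 19 in bam1 and 15 and 19 in Col-0. Without the fold limit 11 antenna genes, LHCB7 being the 1 that was higher, and 12 core genes passed in bam1, and 12 core genes in Col-0. The methods' t-test gave 7 and 5 in bam1 and 6 and 6 in Col-0 at its own threshold, and after Benjamini-Hochberg 0 in all 4. With replicate number as a block the counts were 8 and 6 in bam1 and 7 and 6 in Col-0, and the block changed no other count. The replicate block with the 75th percentile gave 15 and 19 in bam1 and 14 and 17 in Col-0.

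Heat medians of the antenna (-0.72 in bam1, -0.47 in Col-0) became -1.35 and -1.11 with the 75th percentile, the deposited table and the block with the 75th percentile, -1.20 and -1.07 with the mean over probes, and -1.79 and -1.67 with both. Those of the core (-0.66 and -0.67) became -1.42 and -1.38, -1.07 and -0.96, and -1.55 and -1.48. Normexp gave -0.61 for the antenna and -0.64 for the core in bam1. For bam1 against Col-0 under heat, the antenna median (-0.13) became -0.18 with the 75th percentile, the deposited table and the block with it, -0.17 with normexp, -0.27 with the mean over probes and -0.26 with both, and the core median (-0.07) became -0.14 with either form of the mean. The cause was not tested.

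Leaving out each array in turn gave 6 to 9 antenna and 6 to 8 core genes in bam1 and 6 to 7 and 5 to 6 in Col-0, and 0 to 0 in the genotype comparisons. The heat medians then ran from -0.81 to -0.58 (antenna) and -0.84 to -0.65 (core) in bam1 and from -0.57 to -0.41 and -0.75 to -0.60 in Col-0. Medians of bam1 against Col-0 ran from -0.20 to -0.11 and -0.12 to -0.06 under heat and from -0.11 to -0.03 and -0.04 to 0.02 under control conditions, and those of the difference of responses from -0.17 to -0.05 and -0.15 to -0.05. The t-test and a fit on only the groups compared were not run for the difference of responses. With 2 arrays a group, a left-out array leaves a lone sample, which is assumed to vary like the other groups.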
